A study of Rattus norvegicus with 12 samples.

Results

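Cd82 (ENSRNOG00000000047) encodes a tetraspanin and is described here as 1 gene of the 32754 listed in the count tables of 12 libraries. It was selected on its CPM in these same libraries and found by its identifier, so its values are a description and carry no test. The libraries came from RCS, a chondrocyte line derived from the Swarm rat chondrosarcoma, and were made by QuantSeq, which reads polyadenylated transcripts near their 3′ end, so that counts do not scale with transcript length. The 4 groups were WT RCS with vehicle, WT RCS with FGF18, FGFR3/4KO RCS with vehicle and FGFR3/4KO RCS with FGF18, each with 3 biological replicates. FGFR3/4KO cells came from a single clone in which the FGF receptors FGFR3 and FGFR4 had been disrupted with CRISPR/Cas9, so the deletion and the clone cannot be told apart. All cells were grown in adult bovine serum, which is also the vehicle and is called untreated in the labels, and FGF18 was given overnight. The labels give its dose as 50 µg/ml, whereas the methods of the study give 50 ng/ml. The labels do not say how the replicates were separated, so errors measure the spread between these libraries.

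Tetraspanins are small proteins that cross the membrane several times and gather integrins, other adhesion proteins, receptors and signalling enzymes into microdomains. Cd82, also known as KAI1, is found at the plasma membrane and in late endosomes and lysosomes, and is best known as a suppressor of metastasis that restrains cell motility. FGF18 is a ligand of chondrocyte FGF receptors and restrains chondrocyte proliferation in the growth plate. In RefSeq (GRCr8), Cd82 lies beside Alx4 and Ext2 on one side and near Tspan18, another tetraspanin gene, and Tp53i11 on the other. None of its 20 nearest genes has an identifier paired with a name, so none was measured here by name.

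Reads on genes ranged from 373964 to 1196647 per library, and 3 reads, taken as the floor of detection, corresponded to between 2.51 and 8.02 CPM (counts scaled to a common total of reads on genes). Of all genes, 7378 had enough reads to be tested, Cd82 among them, and 1418 of these carry a name. The labelled cell type was examined in 23 chondrocyte markers, of which 9 carry a name, Col2a1 and Acan not among them. In WT RCS with vehicle Sox9, the master regulator of cartilage, had a mean of 1439 CPM. Prelp, Mia, S100b, Col11a2 and Fmod had means between 447 and 2169 CPM. Chad and Optc had 10.7 and 12.2 CPM, and Epyc had too few reads to be tested. Fgfr3 and Fgfr4 were not analysed here by name. Reads on genes made up 12.5 to 14.5% of the reads in the tables of the WT libraries and 17.0 to 18.8% in those of the FGFR3/4KO libraries.

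Cd82 was lowest in WT RCS with vehicle, highest in WT RCS with FGF18, and in between in FGFR3/4KO RCS with either treatment. In WT RCS with vehicle it had 79, 90 and 113 reads, or 114, 122 and 113 CPM after TMM normalization, in replicates 1, 2 and 3. With FGF18 it had 543, 627 and 554 reads, or 445, 599.8 and 683 CPM. The 3 libraries with FGF18 were all above the 3 with vehicle, and the lowest of them was 3.64 times the highest library with vehicle. In FGFR3/4KO RCS with vehicle Cd82 had 179, 99 and 175 reads, or 274, 280.4 and 192 CPM. With FGF18 it had 217, 221 and 237 reads, or 286, 196 and 218 CPM. Both groups of FGFR3/4KO libraries covered nearly the same range, with 1 of the 3 libraries with FGF18 above and 0 below the range of those with vehicle.

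**Figure D1:**
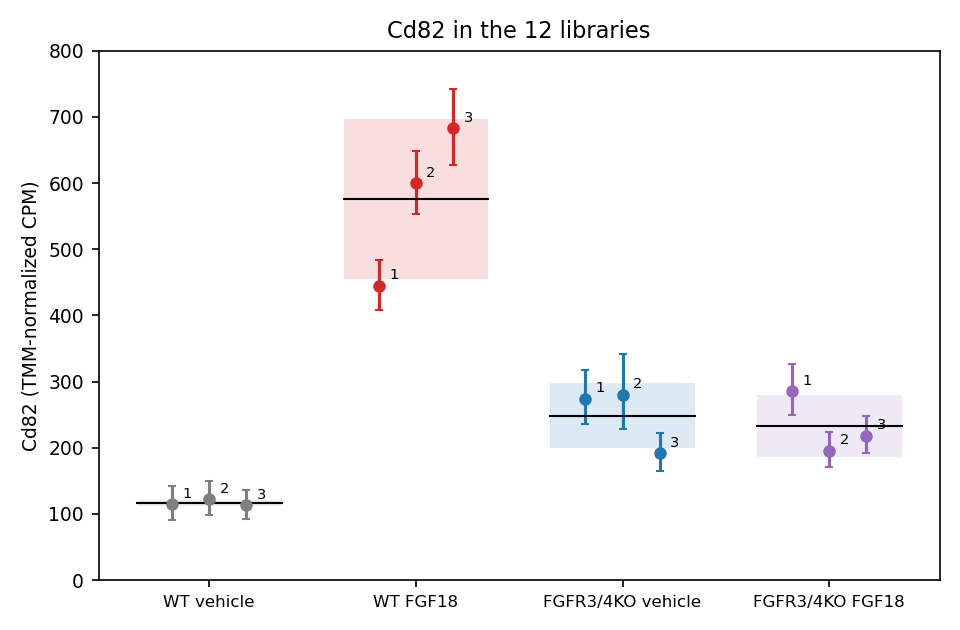
Cd82 in TMM-normalized CPM (vertical axis) in the 12 libraries by group, with the replicate number beside each point, 95% Poisson counting intervals as bars, the group mean as a line and ± 1 SD as shading. The WT libraries with FGF18 lie from 445 to 683 CPM, above all others, and the WT libraries with vehicle from 113 to 122 CPM, below all others.

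The group means were 117 ± 5.07 CPM in WT RCS with vehicle, 576 ± 121 CPM in WT RCS with FGF18, 249 ± 49.5 CPM in FGFR3/4KO RCS with vehicle and 233 ± 46.96 CPM in FGFR3/4KO RCS with FGF18 (SD, n = 3 each). In the order of these levels, WT vehicle and FGFR3/4KO FGF18 were separated by a gap of 73.5 CPM between their nearest libraries. FGFR3/4KO FGF18 and FGFR3/4KO vehicle overlapped, and their means differed by less than either SD. FGFR3/4KO vehicle and WT FGF18 were separated by a gap of 165 CPM. Among all tested genes in a library, Cd82 ranked between 1571 and 1701 by CPM in WT RCS with vehicle and between 233 and 327 with FGF18. In FGFR3/4KO RCS its rank lay between 714 and 1038 with vehicle and between 718 and 1036 with FGF18.

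The spread of Cd82 between replicates was set beside the spread that counting error alone would give. In WT RCS with vehicle its coefficient of variation was 4.35%, where counting error alone for this number of reads gives 10.3%. In WT RCS with FGF18 it was 20.9%, where counting error gives 4.17%. In FGFR3/4KO RCS it was 19.9% with vehicle and 20.1% with FGF18, where counting error gives 8.14% and 6.67%. Counting intervals cover counting error only, since reads that carry no molecular identifiers may be copies of 1 molecule.

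Within groups, Cd82 tended to be lower in libraries with more reads on genes. Its CPM was lowest in the library with the most reads on genes in 4 of 4 groups, and in 3 of 4 without the TMM factors. The same was seen in 169 genes, or 2.29% of those tested. In WT RCS with FGF18 the library with 1196647 reads on genes had 445 CPM of Cd82, and the one with 846957 reads had 683 CPM. This relation was noticed after the values were seen, and its part in the differences between groups was examined only by adding depth to the model, with the values given beside each comparison.

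**Figure D2:**
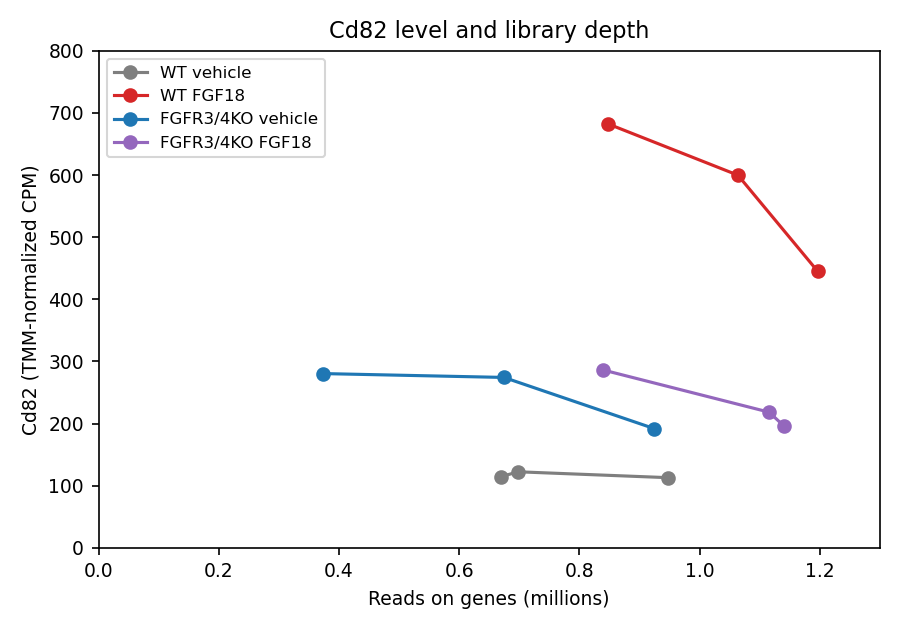
Cd82 in TMM-normalized CPM (vertical axis) against reads on genes (horizontal axis), with 1 point per library and lines joining the 3 libraries of a group. In each of the 4 groups the rightmost library is the lowest. The WT libraries with FGF18 lie above all other libraries, but only between 846957 and 1196647 reads, while other libraries go down to 373964 reads.

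The first comparison asked how Cd82 responded to FGF18 in cells with intact receptors. Its log2 fold change in WT RCS was 2.30 ± 0.18 (SE), a 4.92-fold rise in the level fitted by edgeR, with a 95% interval from 1.93 to 2.67. Of the 7378 genes tested, 73 rose by more than Cd82, and the median log2 fold change over all genes was 0.02. Of the 636 named genes with a mean above 50 CPM, 3 rose by more. In this comparison 25.7% of genes were called at an FDR of 0.05 by edgeR's quasi-likelihood test, 12.9% higher and 12.8% lower, and 20.2% of genes had all FGF18 libraries above all vehicle libraries, as Cd82 had. With depth in the model the log2 fold change of Cd82 was 2.51.

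In FGFR3/4KO RCS the log2 fold change of Cd82 with FGF18 was -0.08 ± 0.18 (SE), with a 95% interval from -0.44 to 0.28. The estimate was between -0.24 and 0.04 when any 1 library was left out, and was above 0 without FGFR3/4KO vehicle replicate 1 or 2 (0.02 for each) or without FGFR3/4KO FGF18 replicate 2 (0.04). With depth in the model it was 0.29 ± 0.18, so that the sign of this small difference depended on how depth was treated. Of all tested genes, 0% were called in FGFR3/4KO RCS by edgeR, and DESeq2 called 0. An unadjusted p under 0.05 in edgeR's quasi-likelihood test was found for 478 genes, a level that some genes pass by chance even if none respond. Libraries with FGF18 above all those with vehicle were found for 6.38% of genes.

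The difference between the responses of Cd82 in FGFR3/4KO and WT RCS was -2.38 ± 0.25 on the log2 scale (SE), with a 95% interval from -2.89 to -1.86. A larger difference of this sign was fitted for 80 of 7378 genes. In this contrast 10.9% of genes were called, 4.96% lower and 5.91% higher. With depth in the model the difference for Cd82 was -2.22.

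Without FGF18, Cd82 was higher in the FGFR3/4KO clone. The ratio of the group means was 2.13, and the lowest FGFR3/4KO library was 1.57 times the highest WT library. The log2 fold change was 1.07 ± 0.19 (SE), or 0.92 with depth in the model, and 277 genes rose by more. In this comparison 14.1% of genes were called in either direction, and 17.1% had all FGFR3/4KO libraries above all WT libraries. With FGF18 in both, Cd82 was lower in FGFR3/4KO RCS, by -1.31 ± 0.16 on the log2 scale (SE), where 17.0% of genes were called lower and 21.5% had all FGFR3/4KO libraries below all WT libraries. With depth in the model this value was also -1.31. The share of reads on genes, given above, also differed between the genotypes without overlap, and its part in these 2 differences was not tested. These comparisons share groups with one another, so their values are not independent.

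**Figure D3:**
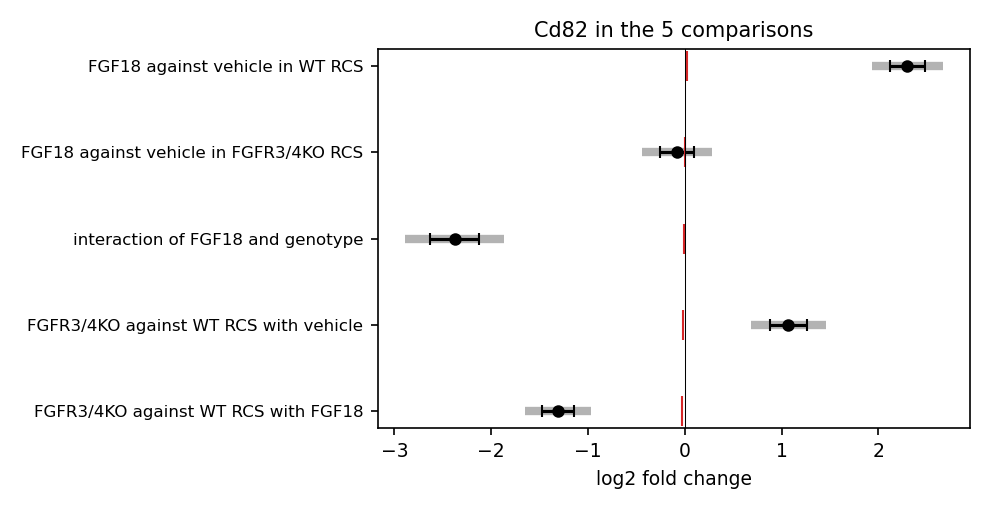
Log2 fold change of Cd82 in the 5 comparisons (horizontal axis), with the estimate as a point, ± 1 SE as black bars and the 95% interval in grey, and the median of all 7378 tested genes as a red tick. Cd82 lies far from the median in 4 comparisons, at 2.30, -2.38, 1.07 and -1.31, and near it with FGF18 in FGFR3/4KO RCS, at -0.08.

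The order of groups seen for Cd82, with all WT vehicle libraries below all FGFR3/4KO libraries and these below all WT FGF18 libraries, was shared by 50 of 7378 tested genes, Cd82 included, or 0.678%. The mirror order was found for 34 genes, or 0.461%. Without the TMM factors 42 genes had the order of Cd82, of which 35 were among the 50. Within it, 9 genes rose by more than Cd82 in WT RCS, none of which has a name here. Of the 8 others with a name, the 5 with the largest rise were Col6a2, a chain of the pericellular collagen VI, with a log2 fold change of 1.88, Foxn3, a forkhead transcription factor, with 1.46, Fam20c, a secretory pathway kinase, with 1.19, Serpinb8, a serine protease inhibitor, with 0.98, and Rbms2, an RNA-binding protein, with 0.86. All 5 thus rose by less than Cd82, whose level they were chosen to parallel.

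The named genes whose log2 CPM followed that of Cd82 most closely over the 12 libraries were taken from 1411 with a mean log2 CPM above 3. They were Fam20c (Pearson's r = 0.95), Arpc1b (0.94), Podnl1 (0.92), Psap (0.92), Hpcal1 (0.91), Foxn3 (0.91), Serpinb8 (0.91) and Col6a2 (0.91). Arpc1b is a subunit of the Arp2/3 complex that nucleates branched actin, and Psap is the precursor of the saposins, which activate lysosomal sphingolipid hydrolases. The median r over the genes compared was -0.03. The genes farthest from Cd82 were Mapk14 (-0.96), which encodes the stress kinase p38 alpha, Pmp22 (-0.94), a membrane protein of myelin, and Ccdc34 (-0.94). These correlations are a description over libraries that fall into groups and share their depth with Cd82, and by Spearman's rank correlation 6 of the first 8 remained among the first 8.

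In WT RCS with FGF18, Cd82 rose by more than the named genes most like it. This holds for named genes only. Of 48 tested genes with r above 0.9, 10 carry a name, and 9 genes without a name in the order of Cd82 rose by more. From WT vehicle to WT FGF18, Fam20c went from a mean of 376 to 858 CPM, Arpc1b from 233 to 540.2 CPM, and Psap from 853 to 1447 CPM. In FGFR3/4KO RCS the log2 fold change with FGF18 was -0.04 for Fam20c, 0.09 for Arpc1b and 0.04 for Psap, beside -0.08 for Cd82. Between FGFR3/4KO and WT RCS with vehicle it was 0.43, 0.29 and 0.50 for these genes, beside 1.07 for Cd82, and Col6a2 had 1.21.

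**Figure D4:**
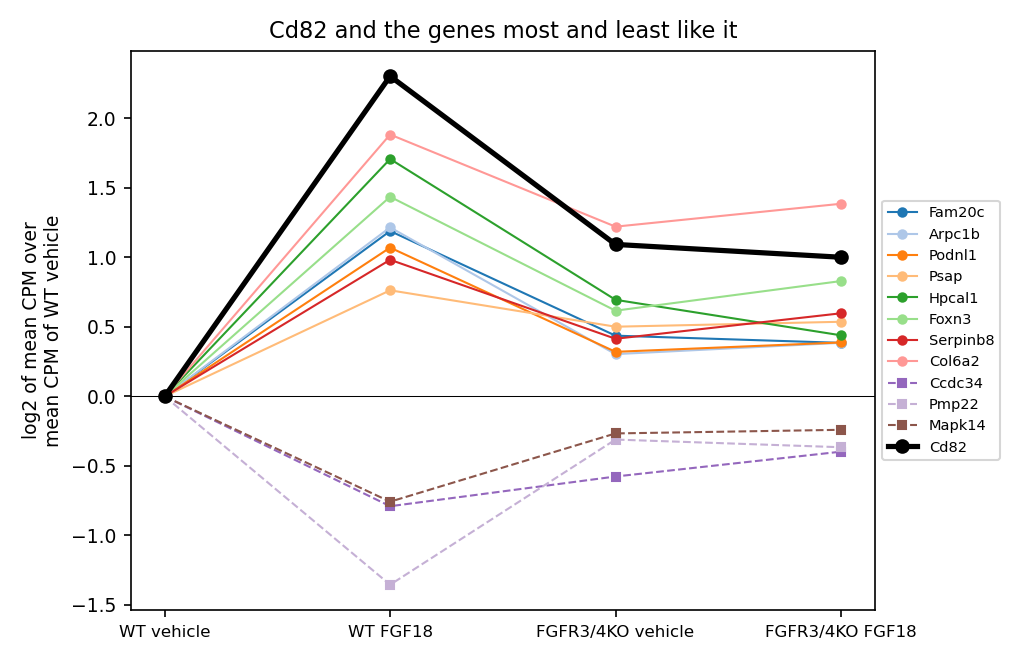
Log2 ratio of the mean CPM of each group to that of WT vehicle (vertical axis) for Cd82 in black, the 8 named genes most like it as solid lines and the 3 least like it as dashed lines. Cd82 has the largest ratio with FGF18 in WT RCS among the genes drawn, and Col6a2 the largest in both FGFR3/4KO groups.

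Of the other tetraspanins, 3 carry a name here and only Tspan6 had enough reads to be tested. In WT RCS, Tspan6 went from a mean of 15.6 ± 5.36 CPM to 23.4 ± 0.48 CPM upon FGF18 (SD, n = 3), a log2 fold change of 0.60 that did not pass (FDR = 0.19, quasi-likelihood test of edgeR adjusted by Benjamini-Hochberg). It had 17.2 ± 4.15 CPM in FGFR3/4KO RCS with vehicle and 10.6 ± 2.35 CPM with FGF18. With FGF18 in both, Tspan6 was lower in FGFR3/4KO RCS by -1.12 (edgeR FDR = 0.011), in the same direction as Cd82, but not past the threshold without FGFR3/4KO FGF18 replicate 3 (-0.97, edgeR FDR = 0.059) or with DESeq2 (-1.11, FDR = 0.074). Tspan7 and Tspan13 had 28 and 60 reads over all 12 libraries. Both fell below the filter on low counts. Cd82 itself had 3134 reads.

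Proteins known to join Cd82 or other tetraspanins at the membrane were partly measured. Of 35 on the list, which was written with earlier results of these data known, as were the lists that follow, 5 were named and tested, and 2 rose and 0 fell with FGF18 in WT RCS, where 12.9% of all genes were called higher and 12.8% lower. Their median log2 fold change was 0.44 beside 0.02 over all genes. Alcam, an immunoglobulin family adhesion protein, had a mean of 29.7 CPM before and 95.2 CPM after FGF18 in WT RCS, a log2 fold change of 1.66 (edgeR FDR = 1.55e-05). Its libraries with FGF18 were all above those with vehicle, as for Cd82 and for 20.2% of all tested genes. In FGFR3/4KO RCS with vehicle Alcam had a mean of 23.1 CPM, a log2 fold change of -0.34 from WT RCS that did not pass (edgeR FDR = 0.54). Itgb5, an integrin beta chain, had 0.44 (edgeR FDR = 0.0475), and it passed only when WT FGF18 replicate 1 or FGFR3/4KO FGF18 replicate 1 was the library left out, with FDRs up to 0.275 in the 10 other fits. Its call was also lost with the replicate block (0.43, FDR = 0.076), with DESeq2 (FDR = 0.086) and with only the groups compared (FDR = 0.054). Itga6, the laminin receptor chain, had 0.14, Cd47 0.82 and Prkca, a protein kinase C, 0.31, and none passed with FGF18 in WT RCS. Between the genotypes with vehicle, 2 of the 5 were called higher and 0 lower, beside 14.1% of all genes called in either direction. They were Itga6 with 1.22 (edgeR FDR = 0.018) and Itgb5 with 1.05 (edgeR FDR = 5.46e-05). The call of Itga6 was lost in 4 of 12 fits without 1 library and with DESeq2 (FDR = 0.054), and that of Itgb5 in 0 of 12. Itga3 and Itga4 had too few reads to be tested.

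Genes of adhesion and motility signalling, which Cd82 is known to restrain, moved in both directions in WT RCS. Of 8 tested, 3 rose and 1 fell, beside 25.7% of all genes called in either direction, with a median log2 fold change of 0.36. Rnd3 had 0.90, Arf6, a small GTPase of membrane recycling, had 0.57, and Lasp1, an actin-binding protein of focal adhesions, had 0.54. Limk1, the kinase of cofilin, had -0.70. Each call was lost with some library left out. That of Rnd3 was lost without WT vehicle replicate 1 or WT FGF18 replicate 1 (0.76 and 0.56) and with depth in the model (0.75), and that of Lasp1 without WT vehicle replicate 2 or WT FGF18 replicate 3 (0.41 and 0.43). That of Arf6 was lost without WT vehicle replicate 2 or 3 or WT FGF18 replicate 1 (0.60, 0.46 and 0.39). It was also lost with DESeq2 (FDR = 0.131), without a filter (FDR = 0.080), with the filter of 1 CPM (FDR = 0.062), with only the groups compared (FDR = 0.051) and with depth in the model (FDR = 0.059). That of Limk1 was lost without WT vehicle replicate 1 or WT FGF18 replicate 2 (-0.60 and -0.64), with DESeq2 (FDR = 0.068) and with depth in the model, where it fell to -0.44 (FDR = 0.164).

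Among genes known to regulate transcription of Cd82, 2 were tested. Atf3, a stress-induced factor of the ATF and CREB family, had 24.6, 12.2 and 8.99 CPM with vehicle and 50.0, 38.3 and 28.3 CPM with FGF18 in WT RCS, with no overlap and a log2 fold change of 1.43 (edgeR FDR = 0.0017). Myc had -0.34 and did not pass. Among targets of p53, which is also known to act on Cd82, 1 of 7 tested genes rose and 2 fell in WT RCS, beside 25.7% of all genes called, with a median of -0.07. Gadd45a, a growth arrest gene, had 1.67, while Cdkn1a, the cyclin-dependent kinase inhibitor p21, had -0.55. Sesn1 had -0.71, a call that was lost without any 1 of the 6 WT libraries (-0.65 to -0.79), with DESeq2 (FDR = 0.173), without a filter (FDR = 0.081), with the filter of 1 CPM (FDR = 0.062) and with depth in the model (-0.62, FDR = 0.140). Mdm2, the ligase that degrades p53, had -0.02 and did not pass.

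Of the genes known to respond to FGF and MAPK signalling, 7 were tested, and 3 rose and 0 fell in WT RCS, beside 12.9% of all genes called higher, with a median log2 fold change of 0.90. Phlda1, a pleckstrin homology domain protein, had 3.18, more than Cd82, and Etv5, an ETS factor downstream of FGF receptors, had 2.64. Etv5 had a mean of 10.9 CPM in WT RCS with vehicle and 56.1 CPM in FGFR3/4KO RCS with vehicle, a log2 fold change of 2.33 that passed (edgeR FDR = 6.80e-06). Of the 7 genes, 1 was called between the genotypes with vehicle, which was Etv5, beside 14.1% of all genes called in either direction. The median of the 7 was -0.17, and Phlda1 had -0.17, Tnfrsf12a -0.39, Spred1 -0.79 and Dusp1 -1.70, none of which passed. Tnfrsf12a, the TWEAK receptor, had 0.90 and lost its call without WT vehicle replicate 1 or 3 (0.81 and 0.87) or WT FGF18 replicate 2 (0.67), and with DESeq2 (FDR = 0.056). Beside the 3 genes called in WT RCS, Cd82 lay between Tnfrsf12a and Etv5 in the size of its rise. Dusp1 had 1.51 there and did not pass (edgeR FDR = 0.062).

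Chondrocyte genes moved in both directions in WT RCS. Of 8 tested, 1 rose and 3 fell, beside 12.9% and 12.8% of all genes, with a median log2 fold change of -0.30. Prelp and Fmod, small leucine-rich proteoglycans, had -0.68 and -0.57. Mia, a secreted cartilage protein, had 0.37 and lost its call without WT vehicle replicate 2 or 3 (0.33 and 0.36) or WT FGF18 replicate 2 (0.37). S100b had -0.52 and lost its call without any 1 of the WT vehicle replicates (-0.51, -0.50 and -0.54) or without WT FGF18 replicate 3 (-0.32), and with depth in the model (-0.44, FDR = 0.079). Sox9 had -0.08 and did not pass.

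Cd82 is also known from leukocytes and fibroblasts, so markers of both were examined. Of 13 leukocyte markers, 2 carry a name, and Cd80 and Arhgdib had 64 and 12 reads over the 12 libraries. Of 10 fibroblast markers, 5 carry a name, and their summed level without TMM factors was 28.5 to 31.4 CPM in WT RCS with vehicle and 63.8 to 87.7 CPM with FGF18. It was 26.7 to 31.1 CPM in FGFR3/4KO RCS with vehicle and 22.4 to 26.2 CPM with FGF18. This sum was therefore highest in the group where Cd82 was highest, and its part in the level of Cd82 was not tested. Of its members, Col5a2, a fibrillar collagen chain, rose by 2.55 (edgeR FDR = 1.77e-04), from 19 reads in the WT libraries with vehicle to 149 with FGF18. It made up most of the reads of the sum in WT RCS with FGF18, where Thy1 had 35 reads. Thy1 had a log2 fold change of -0.57 and did not pass. The other 3 had too few reads to be tested. Pdgfra had 0, 1 and 2 reads in WT RCS with vehicle and 8, 7 and 9 with FGF18. Col1a1 had 0, 3 and 0 with vehicle and 7, 8 and 18 with FGF18. Both were without overlap, where 20.2% of tested genes had no overlap in this direction by CPM. These reads are not scaled to depth. Reads on genes were 669585 to 947730 in the WT libraries with vehicle and 846957 to 1196647 in those with FGF18. Lum, a defining marker, had 6 reads in all 12 libraries. Fewer cells of a type and less RNA per cell cannot be told apart in these bulk samples.

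**Figure D5:**
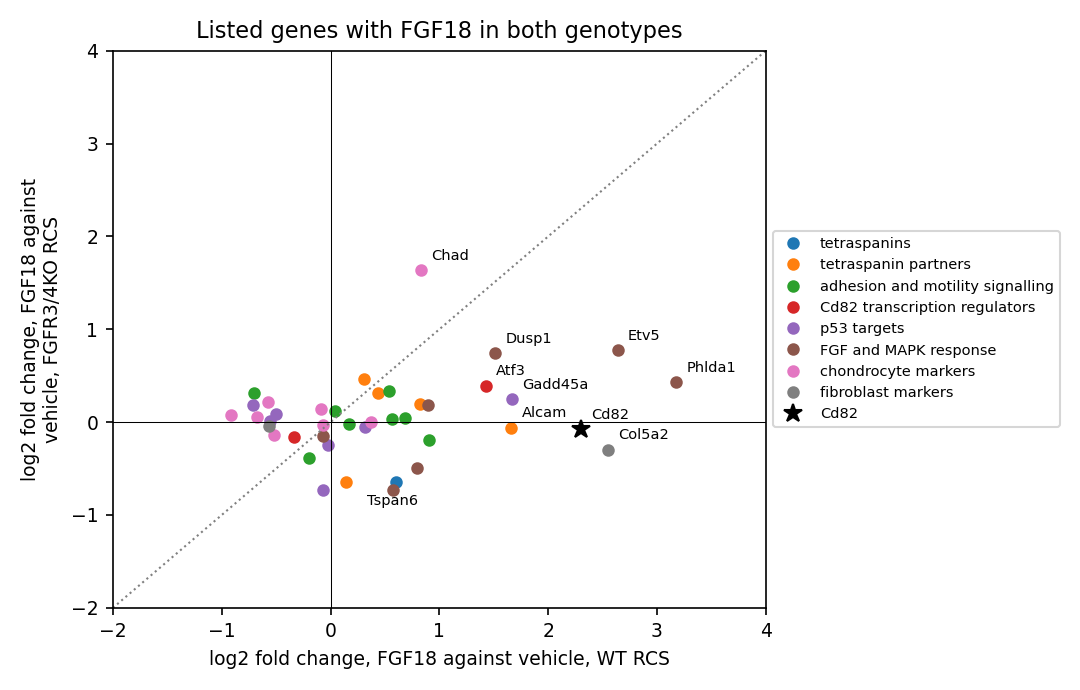
Log2 fold change with FGF18 in WT RCS (horizontal axis) and in FGFR3/4KO RCS (vertical axis) for the tested genes of the lists, coloured by list, with Cd82 as a star and equal change as a dotted line. Cd82 lies at 2.30 and -0.08, with Phlda1, Etv5 and Col5a2 farther to the right.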

How the data were processed

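The data were 12 QuantSeq 3′ mRNA libraries, 3 in each of 4 groups, grouped by their labels. The authors used Trim Galore for trimming, STAR for alignment to rn6 and htseq-count for counting, on a gene model that the methods name as Gencode v19, and deposited raw read counts per gene. Versions are not given in the sources used here. Uncounted reads were left out of library sizes.

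Genes were filtered with filterByExpr (minimum count 10, minimum total 15), which kept 7378, and normalized by TMM. All 12 libraries entered 1 model with a mean per group in edgeR 4.0.16 (R 4.3.3, limma 3.58.1), with the quasi-likelihood test, Benjamini-Hochberg adjustment and a threshold of 0.05. Standard errors are the log2 fold change over the square root of F. Log2 CPM used a prior count of 2. Counting intervals are exact Poisson at 95%. On simulated counts of 7378 genes, 200 were changed, only in WT RCS with FGF18. For FGF18 against vehicle in WT RCS, 95.5% of 111 genes changed by 2 on the log2 scale were recovered. Of those changed by 1, 65.2% were recovered, and 5.20% of calls were false. In the data 25.7% of genes were called in this comparison, so these rates need not hold there.

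Names came from 1998 identifier and symbol pairs in a table of the study, of which only these 2 columns were used. It runs in the order of identifiers, and 24.0% of named and 26.1% of other tested genes were called in WT RCS. No sequence was printed for Cd82. Cd82, the gene lists and the rules were chosen with earlier results of these data known. The genes named are Cd82, all tetraspanins with a name, up to 5 listed genes per list that passed in WT RCS or in the interaction and some chosen by role, the 8 most and 3 least like Cd82, and 5 of its order of groups. Alternatives were upper-quartile normalization, DESeq2 1.42.0, no filter, a filter of 1 CPM in 3 libraries, leaving out each library in turn, fitting only the groups compared and a block for replicate number. Depth as a covariate was added after seeing the data.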

Additional observations from a re-analysis of the deposited data

Results flagged for a closer look

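Of the 40 listed genes tested, 8 had a response to FGF18 that differed between FGFR3/4KO and WT RCS by the interaction test of edgeR (quasi-likelihood, Benjamini-Hochberg over all genes), which called 10.9% of all genes. This was examined for the listed genes only: the genes taken for their likeness to Cd82 were chosen on the same 12 libraries, and were left out after their values had been seen. The difference, FGFR3/4KO minus WT on the log2 scale, was -2.74 for Phlda1 (FDR = 1.80e-09), -1.86 for Etv5 (FDR = 0.0013), -1.72 for Alcam (FDR = 0.0080) and -1.42 for Gadd45a (FDR = 0.0037), each with the sign of the difference for Cd82. The call for Alcam was lost without FGFR3/4KO vehicle replicate 1 (-1.06, FDR = 0.165). Ets2 had -1.30 (FDR = 0.014), with log2 fold changes of 0.57 in WT and -0.73 in FGFR3/4KO cells, and its call was lost without WT vehicle replicate 3 (-1.16, FDR = 0.051). The opposite sign was found for Limk1 (1.01, FDR = 0.041), Fmod (0.79, FDR = 0.0051) and Prelp (0.74, FDR = 0.0021). The call for Limk1 was lost in 9 of 12 fits without 1 library, and remained only without FGFR3/4KO vehicle replicate 2, FGFR3/4KO FGF18 replicate 3 or WT FGF18 replicate 3. It was also lost with the replicate block (1.02, FDR = 0.054) and with DESeq2 (FDR = 0.097).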

How the results depend on the processing

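Cd82 kept the direction of its log2 fold change in 4 of the 5 comparisons under every alternative run. Without 1 library each, it ranged from 2.15 to 2.46 for FGF18 in WT RCS, -0.24 to 0.04 for FGF18 in FGFR3/4KO RCS, -2.53 to -2.20 for the interaction, 0.98 to 1.25 for the genotypes with vehicle and -1.46 to -1.14 with FGF18. Depth as a covariate, added after seeing the data, moved the value in FGFR3/4KO RCS to 0.29. The count of genes called in FGFR3/4KO RCS, 0, became 20 without a filter, 1 with the filter of 1 CPM and 2 with only the groups compared, and 0 to 1 without 1 library (1 without WT FGF18 replicate 3). For the genotypes with vehicle, 1038 genes were called, and 679 to 1211 without 1 library (687 and 679 without FGFR3/4KO vehicle replicates 1 and 3). Libraries of the same number did not deviate together (mean r -0.03 over 18 pairs, 0.02 over 36 pairs of different number). With 3 libraries per group this cannot settle whether the numbers pair samples. With a replicate block Cd82 had 2.30, -0.08, -2.38, 1.07 and -1.31, and 1760, 0, 674, 914 and 2343 genes were called. DESeq2 called 1381, 0, 586, 777 and 1867. Of 1784 alternative values of single genes, 158 lost the call and 0 changed sign. These include genes chosen on the same libraries for likeness to Cd82 or for its order of groups. They belong to 95 results, of which 69 kept the call in every alternative. Among the listed genes, 18 were called with FGF18 in WT RCS, and 9 of these kept the call in every fit without 1 library. Depth limits what can be tested, and Tspan7 and Tspan13 fell below the filter.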
